A study of Solanum lycopersicum with 12 samples.

Results

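Polyphenol oxidases are enzymes that oxidize phenolic compounds to quinones. In tomato they are encoded by a small family of nuclear genes whose products are carried into plastids, while many of their substrates are stored in the vacuole, so that enzyme and substrate meet when cells are broken. The family is known for the browning of damaged tissue and for defence against insects and bacteria, and several of its members respond to wounding and to jasmonate. Quinones react with proteins, which lowers their value as food for an attacker.

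The data described here are the array measurements of 2 polyphenol oxidase genes, LOC101259064 and LOC101259357, in tomato seedlings. The members were defined by the probe and sequence names on the array: probes A_96_P014141, A_96_P086869 and A_96_P160021 stand for LOC101259064 and probe A_96_P071734 for LOC101259357. No further probe carried the same sequence names, which gave 4 probes of the 43603 on the array. In the gene table of the SLM_r2.1 assembly, 3 genes carry a polyphenol oxidase synonym, all on chromosome 8. LOC101259357 and LOC101259064 are next to each other there, with 0 genes between them, and 5 genes lie between LOC101259064 and the remaining one, LOC606710, for which no probe could be matched. LOC101259064 was represented by A_96_P014141, its probe with the highest mean signal, and each of the other probes is given beside it.

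Seedlings that were 15 days old and grown on MS medium were moved to liquid MS medium and then given one of 3 treatments, and were collected at 6 h or 24 h. MBI600 CFCF, the filtered culture medium of the bacterium Bacillus amyloliquefaciens MBI600 with its cells removed, was added as 1 part in 5 of the volume. flg22, a peptide of bacterial flagellin that plants perceive as a sign of bacteria, was added to 1 µM and served as the positive control. The negative control is called untreated, in water, in the sample labels and a mixture of LB and MS in the methods. No LB is described for flg22, so flg22 and control can differ in medium as well. Each of the 6 groups had 2 arrays from separate experiments with different plants, each with RNA of a pool of 2 whole seedlings, so that a change in RNA per cell and a change in the share of the cells that hold it cannot be told apart. The study selected a polyphenol oxidase for a second assay with these arrays as a guide, and the directions given here are not independent of that choice.

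On the 12 arrays, between 69.8% and 81.7% of the spots were well above background, and the arrays of a group correlated at 0.970 to 0.993 over all probes. Each of 3 slides carried 4 of the arrays, and no slide held all 6 groups. All 11 shoot markers measured were well above background on every array, and of the 7 root markers 6 or 7 were. On the log2 scale, the summed signal of the shoot markers was from 18.95 to 19.40 over the 6 arrays of 6 h and from 19.36 to 19.72 over the 6 of 24 h. That of the root markers was from 13.19 to 14.16 over all 12 arrays. All 4 polyphenol oxidase probes were well above background on all 12 arrays, and none was saturated. With the local background subtracted, the green signal was from 634 to 13047 units for A_96_P014141, from 777 to 11598 for A_96_P071734, from 40 to 651 for A_96_P086869, and from 14 to 100.5 for A_96_P160021. An offset of 50 units was added to every spot before the log2 was taken. Differences of A_96_P160021 are therefore understated, and so are those of A_96_P086869 where its weaker arrays enter.

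LOC101259064 stood highest in the seedlings given flg22 for 6 h. Its representative probe A_96_P014141 read 14.19 and 13.46 on the 2 arrays of flg22 at 6 h, and 10.697 and 10.23 on those of the control at 6 h, in normalized log2 signal. With MBI600 CFCF at 6 h it read 10.73 and 12.08. At 24 h it read 9.85 and 9.56 in the control, 11.62 and 11.34 with flg22, and 10.59 and 10.48 with MBI600 CFCF. Both flg22 groups thus lay clear of the control of their time, while the lower of the MBI600 CFCF arrays at 6 h was level with the higher control array. By group mean the order was flg22 at 6 h (13.82 ± 0.51, SD, n = 2), flg22 at 24 h (11.48 ± 0.20), MBI600 CFCF at 6 h (11.40 ± 0.96), MBI600 CFCF at 24 h (10.53 ± 0.08), control at 6 h (10.47 ± 0.33) and control at 24 h (9.71 ± 0.21). The arrays of flg22 at 24 h and MBI600 CFCF at 6 h overlapped, as did those of MBI600 CFCF at 24 h and the control at 6 h.

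LOC101259357 was likewise highest with flg22 at 6 h, but its arrays within a group lay further apart. Probe A_96_P071734 read 14.01 and 12.56 with flg22 at 6 h, 12.26 and 10.37 in the control, and 12.10 and 12.62 with MBI600 CFCF. At 24 h it read 10.82 and 11.15 in the control, 11.34 and 11.86 with flg22, and 11.14 and 10.50 with MBI600 CFCF. The control arrays at 6 h differed from each other by 1.90, and of the MBI600 CFCF arrays at 6 h one lay between them and the other above both. The order of group means was flg22 at 6 h (13.29 ± 1.03, SD, n = 2), MBI600 CFCF at 6 h (12.36 ± 0.37), flg22 at 24 h (11.60 ± 0.37), control at 6 h (11.32 ± 1.34), control at 24 h (10.98 ± 0.24) and MBI600 CFCF at 24 h (10.82 ± 0.45). Among neighbours in that order, only MBI600 CFCF at 6 h and flg22 at 24 h did not overlap.

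**Figure D1:**
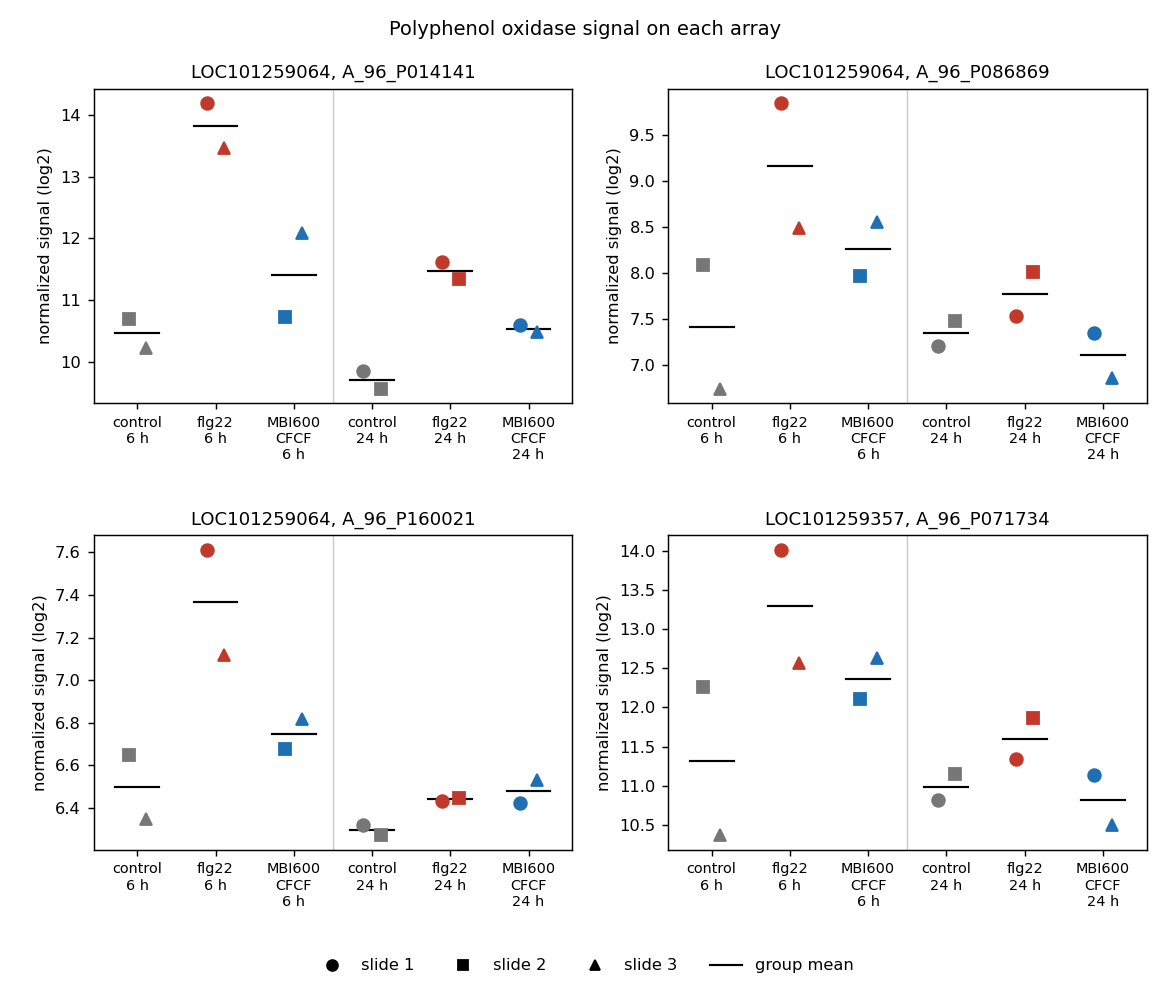
Normalized log2 green signal of the 4 polyphenol oxidase probes (vertical axes, scaled separately for each probe) on every array of the 6 groups, with the group mean as a line and the slide as the symbol. The flg22 arrays at 6 h read 14.19 and 13.46 for A_96_P014141, against 10.697 and 10.23 in the control.

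The other probes of LOC101259064 were also highest with flg22 at 6 h. A_96_P086869 read 9.84 and 8.48 in that group, 8.08 and 6.73 in the control at 6 h, and 7.96 and 8.55 with MBI600 CFCF at 6 h. At 24 h it was between 6.86 and 8.01 on all 6 arrays. A_96_P160021 read 7.61 and 7.12 with flg22 at 6 h, against 6.65 and 6.35 in the control, and stayed between 6.27 and 6.82 on the remaining 8 arrays. Every probe therefore had its highest array in the same sample, replicate 1 of flg22 at 6 h.

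At 6 h, the transcript of LOC101259064 measured by A_96_P014141 rose 10.3-fold with flg22 over the control, a log2 fold change of 3.36 (95% confidence interval 2.39 to 4.33, adjusted p = 0.0323, limma). A call required an adjusted p under 0.1 and a log2 fold change of at least 2 in size, which 0.19% of all probes reached in this comparison, 77 upwards and 6 downwards. This probe had the 54th largest rise, and of the 4 members it alone was called. LOC101259357 had a log2 fold change of 1.97 (0.47 to 3.47, adjusted p = 0.690), A_96_P086869 of 1.75 (0.52 to 2.99, adjusted p = 0.575) and A_96_P160021 of 0.87 (0.47 to 1.26, adjusted p = 0.159). In all 4 probes both flg22 arrays lay above both control arrays, which was so for 13.7% of all probes. On slide 3, the only slide that held both groups, the difference was 3.23 for A_96_P014141 and 2.19 for LOC101259357. The call of A_96_P014141 was lost when slide was a term in the fit (3.12, adjusted p = 0.117), with the 4 arrays of the comparison fitted alone (adjusted p = 0.354), and without control replicate 1 (adjusted p = 0.134), control replicate 2 (adjusted p = 0.135) or flg22 replicate 1 (adjusted p = 0.242). For LOC101259357 the value was 2.92 without control replicate 1 and 1.02 without control replicate 2.

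At 24 h, none of the members was called for flg22. LOC101259064 had a log2 fold change of 1.77 over the control by A_96_P014141 (0.80 to 2.73, adjusted p = 0.429), a 3.41-fold difference. The difference was 1.76 on slide 1 and 1.77 on slide 2, and both flg22 arrays were above both control arrays. LOC101259357 stood 0.62 higher (−0.88 to 2.11, adjusted p = 0.971), A_96_P086869 0.43 and A_96_P160021 0.15. The groups did not overlap in any of the 4 probes, which was so in this direction for 14.3% of all probes. The gap was 1.48 for A_96_P014141, but 0.19 for LOC101259357, 0.05 for A_96_P086869 and 0.11 for A_96_P160021. The share of all probes called was 0.00229%, a single probe. The difference between the flg22 effects at both times, 24 h minus 6 h, was −1.59 for A_96_P014141 (−2.96 to −0.22), −1.36 for LOC101259357, −1.33 for A_96_P086869 and −0.72 for A_96_P160021, each with an adjusted p of 1.00, while 0.00229% of all probes passed that test. Without control replicate 1 of 6 h this difference was −2.30 for LOC101259357 and −2.001 for A_96_P086869, and without control replicate 2 it was −0.41 and −0.66. Without flg22 replicate 1 of 6 h it was −0.63 and −0.65, and without flg22 replicate 2 −2.08 and −2.01.

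MBI600 CFCF gave smaller differences from the control, and none of the 4 probes was called at either time. Both treatments were compared with the same control arrays. At 6 h, A_96_P014141 was 0.94 higher on the log2 scale (−0.03 to 1.90, adjusted p = 0.949) and LOC101259357 1.05 higher (−0.45 to 2.55, adjusted p = 0.949). These means joined unlike arrays. On slide 2, A_96_P014141 differed from the control by 0.03 and LOC101259357 by −0.16, and on slide 3 by 1.85 and 2.26. A_96_P086869 moved the same way, with −0.12 on slide 2 and 1.82 on slide 3. For 2 of the 4 probes, A_96_P014141 and A_96_P160021, both treated arrays were above both controls, beside 13.9% of all probes, and in each case by a gap of 0.03. The share called was 0% of all probes, with 1118 of them at an unadjusted p under 0.05 and 1 called by limma with a trended and robust variance.

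At 24 h with MBI600 CFCF, LOC101259064 was 0.83 higher by A_96_P014141 (−0.14 to 1.79, adjusted p = 0.728), with both arrays above both control arrays. LOC101259357 differed by −0.16 (−1.66 to 1.34, adjusted p = 0.960), and its groups overlapped. The other probes of LOC101259064 did not share a direction: A_96_P086869 differed by −0.24 and A_96_P160021 by 0.18. The count of probes above the control was 2 of 4, in a comparison where 24.2% of all probes had both arrays above and 0.00459% were called. The direction of LOC101259357 and of A_96_P086869 here turned when slide was a term (0.32 and 0.10) and within slide 1, the only slide with both groups (0.33 and 0.14). With 2 arrays a group, its interval left room for a log2 fold change of 1.34 upwards. The 24 h minus 6 h difference of the MBI600 CFCF effect was −0.11 for A_96_P014141 and −1.21 for LOC101259357, with adjusted p-values of 0.956 and 0.656. The value of LOC101259357 was −2.16 without control replicate 1 of 6 h and −0.26 without control replicate 2. In all, 0% of all probes passed that test in limma, with 2658 at an unadjusted p under 0.05.

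**Figure D2:**
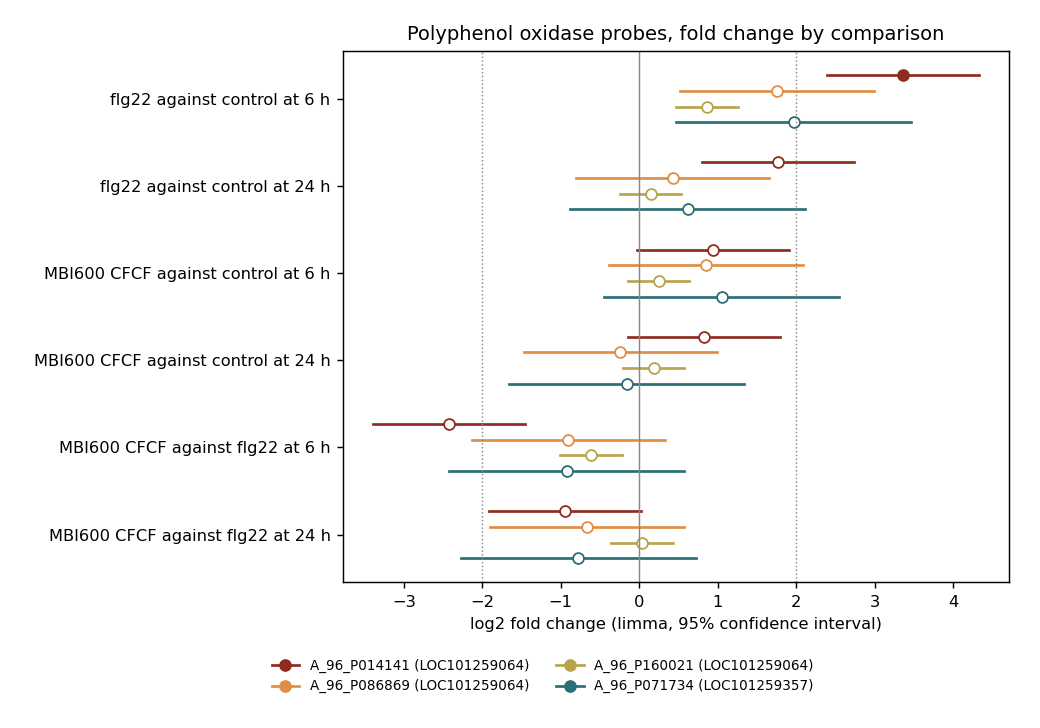
Log2 fold change (horizontal axis) with its 95% confidence interval for the 4 probes in 6 comparisons; filled points were called, and dotted lines mark the fold thresholds at 2 and −2. Only A_96_P014141 with flg22 at 6 h, at 3.36, is filled.

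The direct comparison of both treatments asked where MBI600 CFCF and flg22 differed. At 6 h, A_96_P014141 with MBI600 CFCF differed from that with flg22 by −2.42 on the log2 scale (−3.39 to −1.46, adjusted p = 0.131), a 5.36-fold lower signal that was not called, although its size was past the fold threshold. All arrays of MBI600 CFCF were below those of flg22 for this probe and for A_96_P160021 (−0.62), 2 of the 4 probes, beside 15.9% of all probes. LOC101259357 differed by −0.92 (−2.42 to 0.58, adjusted p = 0.993) and overlapped, and on slide 3 the same difference was 0.06. Of all probes, 0.103% were called. The A_96_P014141 difference passed both thresholds without MBI600 CFCF replicate 2 (−3.10, adjusted p = 0.0415) and with a trended and robust variance (adjusted p = 0.0228). It was −1.74 without MBI600 CFCF replicate 1 (adjusted p = 0.239), −2.18 when slide was a term (adjusted p = 0.307) and −1.38 within slide 3, the only slide with both groups. At 24 h, A_96_P014141 differed by −0.94 with MBI600 CFCF (−1.91 to 0.02, adjusted p = 0.998) and LOC101259357 by −0.78. Non-overlap in that direction held for 3 of the 4 probes and for 16.3% of all, and 0.00688% were called.

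By group mean, all 4 probes read lower at 24 h than at 6 h in every treatment, and none was called. With flg22, the difference of 24 h from 6 h was −2.35 for A_96_P014141 (−3.31 to −1.38, adjusted p = 0.112), −1.69 for LOC101259357 (−3.19 to −0.19, adjusted p = 0.731), −1.40 for A_96_P086869 and −0.92 for A_96_P160021 (adjusted p = 0.125). The difference of A_96_P014141 became a call with an offset of 16 (adjusted p = 0.0551), with only probes well above background (adjusted p = 0.0647) and with a trended and robust variance (adjusted p = 0.0252). Both arrays of 24 h were below both of 6 h in all 4 probes, as for 14% of all probes, and 0.11% of all probes were called. With MBI600 CFCF the differences were −0.87, −1.54, −1.16 and −0.27 in the same order, again with all 4 probes below, in a comparison where 26.1% of all probes were below and 0.0115% called. In the control they were −0.76, −0.33, −0.07 and −0.20, with 2 probes below, beside 16.5% of all. There, 0% of all probes were called by limma, with 2055 at an unadjusted p under 0.05, and without control replicate 1 of 6 h the value of LOC101259357 was 0.62 in the opposite direction.

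The probes of LOC101259064 did not all follow one another most closely. Over the 12 arrays, A_96_P086869 correlated with the LOC101259357 probe A_96_P071734 at 0.992, and with A_96_P014141 and A_96_P160021 of its own gene at 0.851 and 0.896. With the group means removed, these values were 0.988, 0.636 and 0.850. A_96_P014141 correlated with A_96_P071734 at 0.837 and with A_96_P160021 at 0.918. The points share their RNA and their arrays, and the values are given as a description. The difference was visible in single groups: the control arrays at 6 h differed by 1.35 in A_96_P086869 and by 1.90 in A_96_P071734, but by 0.46 in A_96_P014141. With flg22 at 24 h, A_96_P014141 stood 1.77 above the control, while A_96_P086869 and A_96_P071734 stood 0.43 and 0.62 above. Genes that lie side by side in a family can share sequence, and binding of a probe to the transcript of the neighbouring gene was not tested, since the probe sequences were not used here.

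**Figure D3:**
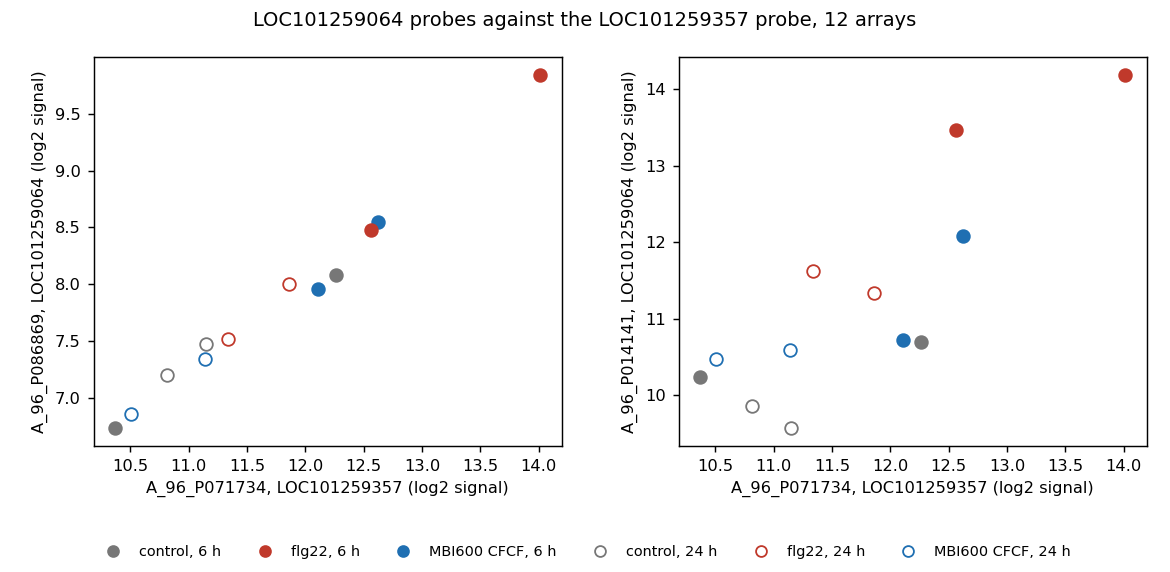
Log2 signal of 2 LOC101259064 probes (vertical axes) against that of the LOC101259357 probe (horizontal axes) over the 12 arrays; filled points are 6 h and open points 24 h. A_96_P086869, on the left, follows it along a line (r = 0.992), and A_96_P014141, on the right, more loosely (r = 0.837).

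Slide 3 held 1 array in each of 4 groups. In 3 of the 4 its array was the lower of the group for A_96_P014141, A_96_P086869 and A_96_P071734, and in 2 of the 4 for A_96_P160021. For the former probes the exception was MBI600 CFCF at 6 h, whose array on slide 3 was the higher of the group. The same array was higher than its replicate in the wound-response genes LAPA1 (12.04 against 10.15) and mcpi (10.68 against 8.10). The control array of 6 h on slide 3 was also the higher of its group in these genes, with 10.33 against 8.10 for LAPA1 and 7.81 against 6.32 for mcpi. So was that of MBI600 CFCF at 24 h, with 9.10 against 8.30 and 6.41 against 6.20. That of flg22 at 6 h was the lower, with 14.52 against 16.50 and 11.06 against 12.63. What part the slide or this sample had in these differences was not tested.

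The genes whose pattern over the 12 arrays was most like A_96_P014141, among 2462 probes with a gene name, a range of at least 1 and a signal well above background, were NAOD (r = 0.965), TD2 (r = 0.963), LAPA1 (r = 0.959), LOC104646135 (r = 0.954) and IDI2 (r = 0.951). TD2 is a threonine deaminase and LAPA1 a leucine aminopeptidase, both known from wounded tomato leaves. Like the polyphenol oxidase, both were selected by the study for its second assay with these arrays as a guide. Their directions are thus not independent of that choice. LAPA1 read 16.50 and 14.52 with flg22 at 6 h, against 8.10 and 10.33 in the control. For the LOC101259357 probe they were LOC544223 (r = 0.941), ARPI (r = 0.937), PMEU1, a pectin methylesterase (r = 0.920), gad2 (r = 0.908) and CPI (r = 0.902). No gene was on both lists. A gene with several probes entered here by its probe with the highest correlation, which was A_96_P129792 for TD2. In the wound and jasmonate list below, TD2 is given by its brightest probe, A_96_P205969.

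In all, 3 lists of related genes were read beside the polyphenol oxidases. Of the wound and jasmonate list, 15 of 22 genes had a probe. With flg22 at 6 h, 13 of the 15 had both arrays above the control, beside 13.7% of all probes, their median log2 fold change was 1.30 beside −0.02 over all probes, and 1 was called, beside 0.19% of all probes: LAPA1 (6.30, adjusted p = 0.0750). JAZ2, a repressor of jasmonate responses, was 1.34 higher with an adjusted p of 0.0259, under the fold threshold. TD2 was 5.74 higher (adjusted p = 0.198) and mcpi, an inhibitor of metallocarboxypeptidases, 4.78 higher (adjusted p = 0.113). ARG2, an arginase, was 2.91 higher (adjusted p = 0.1003), and the jasmonate synthesis gene AOC, an allene oxide cyclase, 2.21 higher (adjusted p = 0.119). TD2, mcpi, ARG2 and AOC were not called. The count of 1 was 0 when control replicate 1 or flg22 replicate 1 was left out or slide was a term, and 5 with the processed signal or the 75th percentile normalization. With MBI600 CFCF at 6 h, 3 of the 15 were above, beside 13.9% of all probes, the median was 0.07 and none was called. The genes ran from −0.64 to 2.32 there, with mcpi (2.32), TD2 (2.02) and LAPA1 (1.88) the highest. The arrays of TD2 and LAPA1 overlapped those of the control. At 24 h the medians were 0.28 with flg22 and 0.06 with MBI600 CFCF, again with no call. With flg22, 10 of the 15 were above, beside 14.3% of all probes. The genes ran from −0.12 to 3.64, with mcpi (3.64), LAPA1 (3.57) and TD2 (3.49) the highest. With MBI600 CFCF, 7 were above, beside 24.2% of all probes, and 5 were below. The share of all probes below was not counted, so the latter count cannot be set against it.

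Genes of the phenolic substrate list, which holds the decarboxylases AADC1A, AADC1B and AADC2, were covered by 13 probes for 24 names. None was called for either treatment. Whether the products of these enzymes are substrates of the polyphenol oxidases was not tested. The median of the list was 0.43 with flg22 at 6 h, when 6 of the 13 had both arrays above the control, beside 13.7% of all probes. It was 1.01 at 24 h, when 12 of the 13 were above, beside 14.3% of all probes. With MBI600 CFCF the medians were 0.13 at 6 h and 0.48 at 24 h, with 3 and 7 of the 13 above, beside 13.9% and 24.2% of all probes. AADC1A, an aromatic amino acid decarboxylase, was 2.43 higher with flg22 at 6 h (adjusted p = 0.280), and CHS1, a chalcone synthase, 1.88 higher at 24 h (adjusted p = 0.712). By its median, the phenolic list thus had the larger flg22 difference at 24 h. The flg22 differences of all 4 polyphenol oxidase probes were larger at 6 h. Within the list, AADC1A (2.43 at 6 h, 1.45 at 24 h), AADC1B (1.75, 0.37) and PAL3 (0.74, 0.70) were also larger at 6 h. From 6 h to 24 h the list fell by its median in the control (−0.77), with flg22 (−0.34) and with MBI600 CFCF (−0.35). The contrast between the list and the polyphenol oxidase probes was not tested.

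The list of redox enzymes had 14 of 18 genes measured, and none was called against the control. Its medians were 0.22 and 0.19 with flg22 at 6 h and 24 h, and 0.25 and 0.09 with MBI600 CFCF. Both arrays lay above the control for 7 of the 14 with flg22 at 6 h, beside 13.7% of all probes. At 24 h this was so for 5, beside 14.3%. With MBI600 CFCF the counts above were 5 and 3, beside 13.9% and 24.2%. The counts below were 1 and 1 with flg22, and 4 and 3 with MBI600 CFCF. The share of all probes below the control was not counted, so these counts cannot be set against it. LOC101253377, which carries the name GPX, was 2.35 higher with flg22 at 6 h (adjusted p = 0.112) and 1.92 higher at 24 h (adjusted p = 0.353). In the direct comparison at 6 h, where 0.103% of all probes were called, cevi16 was called lower with MBI600 CFCF than with flg22 (−2.31, adjusted p = 0.0730). That call was lost when slide was a term and when flg22 replicate 1 or either MBI600 CFCF array was left out.

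**Figure D4:**
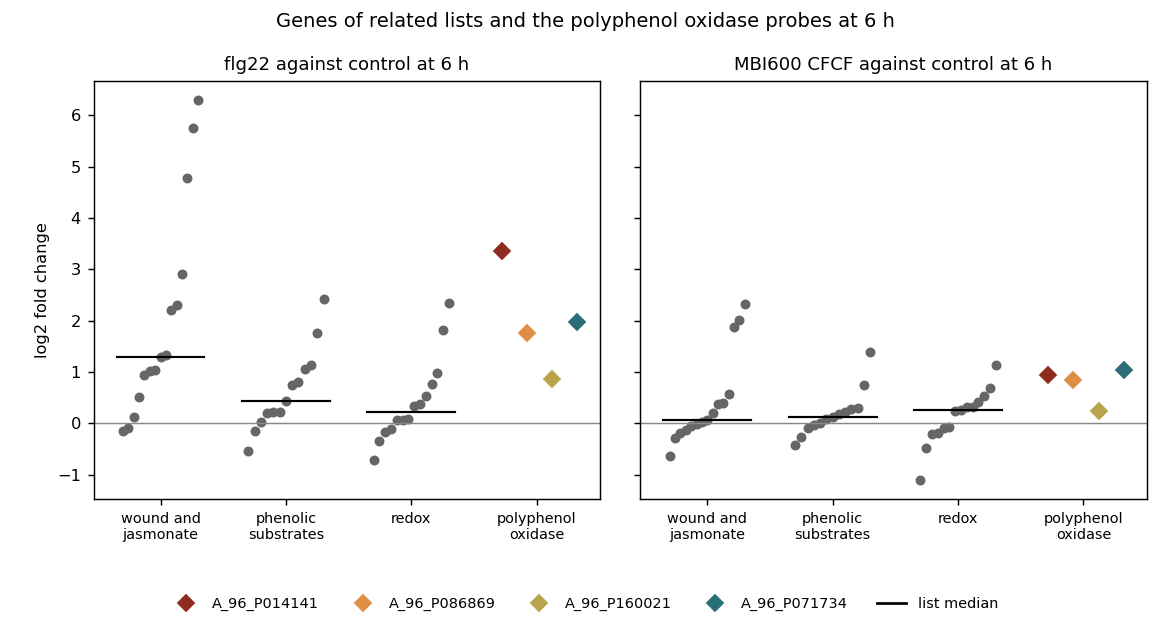
Log2 fold change (vertical axis) against the control at 6 h for each measured gene of 3 lists (grey, in order of size, with the list median as a line) and for the 4 polyphenol oxidase probes (diamonds), with flg22 on the left and MBI600 CFCF on the right. The wound and jasmonate list has a median of 1.30 with flg22 and 0.07 with MBI600 CFCF.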

How the data were processed

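The authors scanned 2-colour Agilent tomato arrays. The deposited scanner files give, for every spot, raw median intensity and background in green (Cy3) and red (Cy5), and a processed green intensity corrected for background and dye by Agilent Feature Extraction 10.7.3.1. No source used here names the sample in the red channel, and the results are of the green channel, as in the methods, with red used for checks. The authors also deposited log2 values, made from green medians by normexp correction (offset 50) and quantile normalization, and recomputed values differed from them by at most 5e-09.

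Control spots were left out, outlier spots (1 to 5 per array) were set to missing, and spots were averaged to 43603 probes. A mean per group was fitted over all 12 arrays in limma 3.58.1 (R 4.3.3), with empirical Bayes tests and Benjamini-Hochberg adjustment over all probes. Since 2 arrays against 2 allow no exact permutation p below 0.333, no such test was used, and arrays limit the precision by their number. A shared number pairs no samples in the sources. The steps were tested on simulated data.

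Names came from the SLM_r2.1 RefSeq table, which matched 4884 probes to 2232 of 41476 genes. The members, the lists, the thresholds and the alternatives were chosen with earlier results of these data known. A polyphenol oxidase gene or a gene of the lists was represented by its brightest probe. A gene named for its correlation was represented by its best-correlated probe. The genes named were all members, genes of the lists, and for each polyphenol oxidase gene the 5 genes with the highest correlation. LAPA1 and mcpi were shown by array after their values had been seen. Alternatives were the processed intensity, other backgrounds, normalization, probe filters, channel ratio, variance model and thresholds, the replicate number or slide as a term, slides or 2 groups alone, other probes, and each array left out.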

Additional observations from a re-analysis of the deposited data

How the results depend on the processing

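For the 12 comparisons of both genes, 210 of 228 tested alternatives kept direction and side of the threshold. Many left the log2 difference unchanged and so had to keep direction. Only 1 of the 12 was called, so most kept the uncalled side. Within slides, 13 of 16 differences kept direction. The call of LOC101259064 with flg22 at 6 h was lost with slide as a term (3.12) and in the 2 groups alone (3.36). A_96_P086869 (1.75) or A_96_P160021 (0.87) as its probe also lost it. It was lost in 3 of 4 fits that left out an array (2.996, 3.13 and 3.59), and kept without flg22 replicate 2 (3.72). The cause was not tested, beyond fewer arrays in some fits. MBI600 CFCF against flg22 at 6 h became a call for LOC101259064 with an offset of 16 (−2.44), with only probes well above background, a trended and robust variance or the fold threshold alone (−2.42), and in 1 of the fits that left out an array (−3.10 to −1.74), and was −1.38 within slide 3. MBI600 CFCF against control at 6 h moved within slides, to 0.029 and 1.85 for LOC101259064 and to −0.16 and 2.26 for LOC101259357, and LOC101259357 against flg22 at 6 h moved to 0.063 within slide 3. MBI600 CFCF against control at 24 h changed direction for LOC101259357 with the green to red ratio (0.15), slide as a term (0.32), within slide 1 (0.33) and an array left out (−0.48 to 0.16), and for LOC101259064 with A_96_P086869 (−0.24). MBI600 CFCF against flg22 at 24 h did so with A_96_P160021 (0.037).

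Among values that were not called, A_96_P086869 changed direction in MBI600 CFCF against control at 24 h with the 75th percentile (0.084), the green to red ratio (0.29), slide as a term (0.10), within slide 1 (0.14) and an array left out (−0.48 to 0.0026). In the control at 24 h against 6 h it did so with the processed signal (0.059) and an array left out (−0.74 to 0.61), as did A_96_P071734 (−1.28 to 0.62). A_96_P160021 did so in MBI600 CFCF against control at 6 h (−0.091 with the 75th percentile, −0.040 with the green to red ratio), against flg22 at 24 h (−0.038 without background subtraction, −0.016 to 0.090 with an array left out), at 24 h against 6 h (0.41 and 0.029 with the 75th percentile and the ratio) and in the difference of effects (0.89 and 0.54, and −0.21 to 0.084 with an array left out). For A_96_P014141 that difference was −0.79 to 0.57 with an array left out. The cause was not tested. The 75th percentile moved the median of all probes by up to 0.58, in MBI600 CFCF at 24 h against 6 h.

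With the replicate number as a term (replicate block), no call of a member changed. A_96_P014141 with flg22 at 6 h had 3.36 (adjusted p = 0.0640). Replicate differences of 15 pairs of groups correlated from −0.51 to 0.66. Those of the 3 pairs at 6 h were from 0.22 to 0.42, and those of the 6 pairs among groups with replicate 2 on slide 3 from 0.21 to 0.44, so that number and slide run together there. No source pairs the samples. Under the block, 65 (main fit 83) probes were called for flg22 at 6 h and 3 (1) at 24 h. MBI600 CFCF against flg22 at 6 h had 28 (45). MBI600 CFCF at 24 h had 0 (2), and against flg22 at 24 h 1 (3). With the numbers of a group crossed, an alternative chosen after seeing the data, 1 probe was called in each of the latter comparisons, 0 for the control over time and 52 for flg22 over time. Over other settings, flg22 at 6 h had from 40 (slide as a term) to 169 (processed signal) called probes. Of the wound and jasmonate list, 0 to 5 genes were called there in place of 1, and of the phenolic and redox lists 0 or 1 in place of 0. For MBI600 CFCF against flg22 at 6 h, the redox list had 0 or 1 in place of 1 and the wound and jasmonate list 0 or 1 in place of 0.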
